A study of Mus musculus with 237 samples.

Results

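The glycolysis enzymes followed here are 10 genes that cover the path from glucose to lactate with the exception of enolase: Hk2, Gpi1, Pfkl, Aldoa, Tpi1, Gapdh, Pgk1, Pgam1, Pkm and Ldha. They were taken by symbol from a table of 36186 gene entries, where each of the 10 had 1 entry. In the mm10 coordinates of the table, Hk2 lies at chr6:82725027-82774454, Gpi1 at chr7:34201327-34230305, Pfkl at chr10:77986949-78009796, Aldoa at chr7:126795234-126800447 and Tpi1 at chr6:124810592-124814296. Gapdh lies at chr6:125161852-125165583, Pgk1 at chrX:106187124-106203699, Pgam1 at chr19:41911871-41918665, Pkm at chr9:59656368-59679375 and Ldha at chr7:46845804-46855627. The levels were measured by RNA-seq of single mouse embryonic kidney cells, captured on Fluidigm C1 chips after dissociation with proteases and enrichment by FACS. The table gives RPKM, reads scaled to the length of the gene and the size of the library. Detection means a level of at least 1 RPKM, and the mean of log2(RPKM + 1) over the 10 enzymes of a cell is called the enzyme mean.

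Of 237 cells, 236 fell into 5 labelled groups, all of mixed strain. Those of embryonic day E18.5 comprised 74 cells of wild-type cap mesenchyme with its descendants, 71 interstitial cells, also wild type, whose titles carry FoxD1_GCE, and 44 cap mesenchyme cells of Pax2 mutants. Those of E13.5 comprised 18 cap cells of wild type and 29 of Pax2 mutants. The labels name neither the Pax2 allele, nor the surface or reporter signal used for sorting, nor the embryos. Each group was therefore treated as 1 sample: SDs are between cells of a group, no test between groups was made, and a difference is counted where it reached 1 log2 unit. Each group has its own date, so group and date cannot be told apart. Pool 2 held the 74 E18.5 wild-type cap cells and 22 interstitial cells, pool 3 held the other 49 interstitial cells and all cells of both E13.5 groups, and pool 4 held the 44 E18.5 mutant cells, which shared a pool with no other group.

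Glycolysis breaks glucose down to pyruvate in the cytosol and yields ATP without oxygen, and lactate dehydrogenase turns pyruvate into lactate, which restores the NAD+ that the path consumes. Proliferating and undifferentiated cells often run this path at a high rate, also when oxygen is present. The cap mesenchyme holds the nephron progenitors, which depend on the transcription factors Six2 and Pax2, and the interstitium holds the stromal cells around them. Hypoxia-inducible factors and Myc are known activators of many of these enzyme genes.

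Pax2 was detected in 56 of 74 wild-type cap cells and in 0 of 44 mutant cells at E18.5, and in 15 of 18 wild-type and 17 of 29 mutant cap cells at E13.5. The E18.5 mutant cells did not carry the markers of their labelled cell type: Six2 was detected in 1 of 44 cells, the mean of 10 progenitor markers was 0.68 against 3.78 in wild-type cap, and the mean of 8 stromal markers was 5.33 against 0.78 in wild-type cap and 4.18 in interstitium. At E13.5 the mutant cells had progenitor and stromal means of 1.13 and 1.81, against 3.43 and 1.30 in wild-type cap. The median cell had 5210.5 genes detected in E18.5 cap, 5178 in interstitium, 3643 in E18.5 mutant, 5566 in E13.5 cap and 4560 in E13.5 mutant. Markers of proximal tubule, endothelium, immune cells, erythroid cells, ureteric epithelium and committing nephron had list means of at most 0.84 in every group. Since the enzyme mean moved with that number, values are also given for the 113 labelled cells with 3000 to 5000 genes detected, of which only 2 were E13.5 wild-type cap cells. Of these 2, 1 held endothelial markers. An ATP synthase subunit 6 pseudogene was at 20000 RPKM or more in 20 of 74 wild-type cap, 9 of 71 interstitial and 4 of 44 mutant cells at E18.5. At E13.5 it was that high in 8 of 29 mutant cells and in 1 of 18 wild-type ones. These pseudogene-high cells had low enzyme means, 4.50 ± 1.38 (SD, n = 20) against 7.43 ± 0.78 (n = 54) in E18.5 cap, so results are also given without them where they move. No 2 cells had identical values.

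The promoters of Ldha, Pgk1 and Aldoa are shown because these genes mark the ends of the pattern described below: Pgk1 was furthest from wild-type cap in E18.5 mutant cells, Aldoa was the member that differed by less than 1 unit there over all cells, and Ldha held the most matches to the letters searched. Each window runs from 250 bases before to 50 after a RefSeq start site (GRCm38.p6, the primary assembly of mm10), 5′ to 3′ on the gene's strand. Capitals mark ACGTG on either strand, a form of the core of the hypoxia response element, and the E box CACGTG where both strands match. GCGTG, another form of that core, was neither searched nor marked.
Ldha (chr7:46845554-46845853, plus strand): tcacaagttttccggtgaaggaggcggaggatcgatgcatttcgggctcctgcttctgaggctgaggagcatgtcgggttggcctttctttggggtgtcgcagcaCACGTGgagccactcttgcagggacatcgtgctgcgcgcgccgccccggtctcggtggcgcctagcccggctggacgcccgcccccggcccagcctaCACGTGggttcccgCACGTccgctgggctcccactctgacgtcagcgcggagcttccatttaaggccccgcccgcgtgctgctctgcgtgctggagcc
Pgk1 (chrX:106186850-106187149, plus strand): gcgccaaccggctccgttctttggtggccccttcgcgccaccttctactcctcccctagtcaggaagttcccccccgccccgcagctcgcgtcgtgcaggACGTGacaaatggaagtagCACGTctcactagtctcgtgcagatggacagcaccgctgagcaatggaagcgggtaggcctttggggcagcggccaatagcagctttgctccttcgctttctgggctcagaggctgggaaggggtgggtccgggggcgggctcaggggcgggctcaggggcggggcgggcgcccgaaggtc
Aldoa (chr7:126799205-126799504, minus strand): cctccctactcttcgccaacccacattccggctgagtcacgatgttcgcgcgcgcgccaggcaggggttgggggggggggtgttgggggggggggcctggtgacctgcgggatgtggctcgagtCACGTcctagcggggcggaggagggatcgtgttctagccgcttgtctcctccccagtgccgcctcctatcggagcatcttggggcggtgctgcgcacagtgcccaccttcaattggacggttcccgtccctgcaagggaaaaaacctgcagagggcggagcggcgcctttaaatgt

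All 10 genes matched RefSeq promoter windows, 14 in all, of which 2 of Aldoa overlap. ACGTG, searched on both strands, was present in 8 of the 14 windows and in 7 of the 10 genes, against 19.6% of all 32851 windows and 26.5% of the windows with at least 60% G and C. The Ldha window above held 5 matches, counted on both strands, and those of Pgk1 and Hk2 and 1 of the Pkm windows held 2 each. Aldoa, Gapdh and Pgam1 had 1 match in a window, and Gpi1, Pfkl and Tpi1 had none to ACGTG. Matches to GCGTG were not counted. CACGTG, the E box bound by Myc and other factors, contains ACGTG on both strands, so each E box counts as 2 of those matches. It was present in Ldha alone, against 7.15% of all windows. GGGCGG, the GC box of Sp factors, was present in 10 of the 14 windows, against 35.7% of all windows and 80.6% of the windows with at least 60% G and C. These letters describe the windows and are no evidence of binding. Some of the 14 windows have less than 60% G and C, such as those of Gapdh (56.7%) and Tpi1 (57.3%). The shares of 26.5% and 80.6% are therefore not matched to all 14.

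In wild-type cells most of these steps rested largely on 1 isozyme. Gapdh, which oxidises glyceraldehyde 3-phosphate, led in every group but the E18.5 mutant, with mean levels of 1341, 841, 295, 1303 and 955 RPKM in E18.5 cap, interstitium and mutant and in E13.5 cap and mutant. Ldha ranked next or next but one to the leader by mean log2 level in every group, and Hk2 and Pfkl, the enzymes of the regulated entry steps, held the lowest 2 ranks in every group. In E18.5 cap cells the median level per length ran from 11.7 RPKM for Pfkl and 15.1 RPKM for Hk2 to 569 RPKM for Ldha and 1162 RPKM for Gapdh. In the E18.5 mutant cells Aldoa, not Gapdh, ranked first, with a mean log2 level of 7.13 ± 2.89 against 6.94 ± 2.85 (SD, n = 44 cells), a gap far within the spread between cells.

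Hk2 made up 97.0% of the summed mean RPKM of 4 hexokinase genes in E18.5 cap, 94.2% in interstitium and 74.4% in E18.5 mutant cells. Hk1, the hexokinase of most adult tissues, was detected in 16 of 74, 14 of 71 and 5 of 44 of those cells. Aldoa made up 95.4% to 100% of aldolase RPKM over the 5 groups. Pklr and Pgk2, the liver and testis counterparts of Pkm and Pgk1, were listed at 0 in every labelled cell. Phosphofructokinase and lactate dehydrogenase were mixed: Pfkl held 65% of its step in E18.5 cap, 49.7% in interstitium and 34.6% in E18.5 mutant, with Pfkm as the main partner, and Ldha held 63.4% to 75.1% of its step over the groups, the rest being almost all Ldhb. Fbp1, Fbp2 and G6pc, enzymes that run the path backwards to glucose, were detected in none of the labelled cells.

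**Figure D1:**
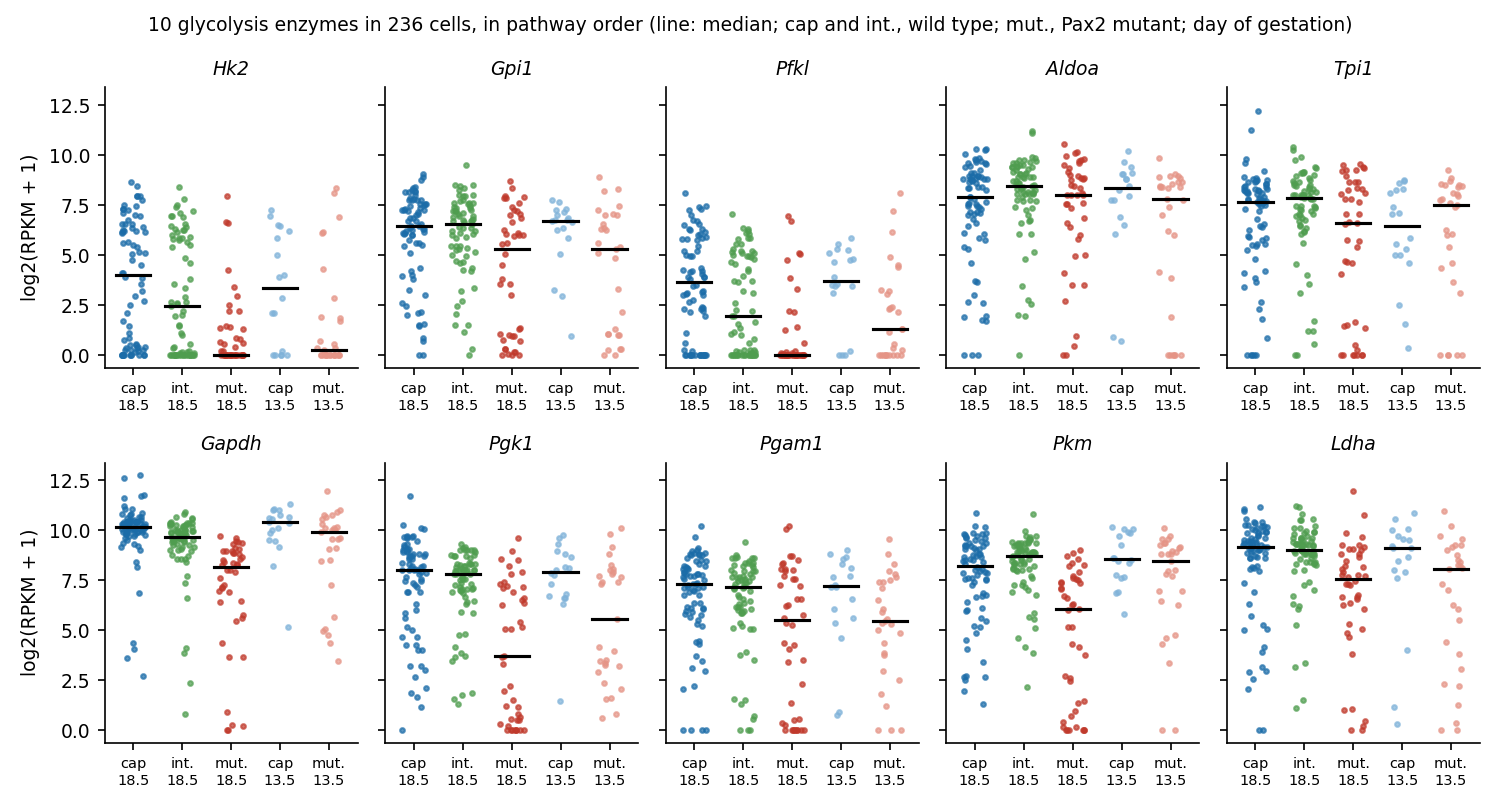
Level of each of the 10 enzymes in 236 single cells as log2(RPKM + 1), in pathway order, 1 panel per gene. Points are cells, lines are group medians, cap and int. (interstitium) are wild type, mut. is Pax2 mutant and the number under each name is the day of gestation; in E18.5 mutant cells the medians of Hk2 and Pfkl lie at 0 and that of Pgk1 at a fraction of its wild-type level, while that of Aldoa lies beside the wild-type medians.

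The enzyme mean lay between 6.62 and 6.70 in the 3 wild-type groups and was lower in both mutant groups. It was 6.64 ± 1.63 (SD, n = 74 cells) in E18.5 cap, 6.62 ± 1.29 (n = 71) in interstitium and 6.70 ± 1.56 (n = 18) in E13.5 cap. In the mutants it was 4.59 ± 1.48 (n = 44) at E18.5 and 5.32 ± 1.93 (n = 29) at E13.5. Of the E18.5 mutant cells, 2 of 44 lay above the median of the wild-type cap, and the same number above the median of the interstitium, but the ranges overlapped: mutant cells ran from 0.98 to 7.70 and cap cells from 2.75 to 9.01. All 10 enzymes were detected together in 38 of 74 cap, 29 of 71 interstitial and 2 of 44 mutant cells at E18.5, and in 10 of 18 cap and 6 of 29 mutant cells at E13.5. Cells with 5 or fewer of the 10 numbered 0 in each wild-type cap group, 1 in the interstitium, 12 in the E18.5 mutant and 3 in the E13.5 mutant.

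**Figure D2:**
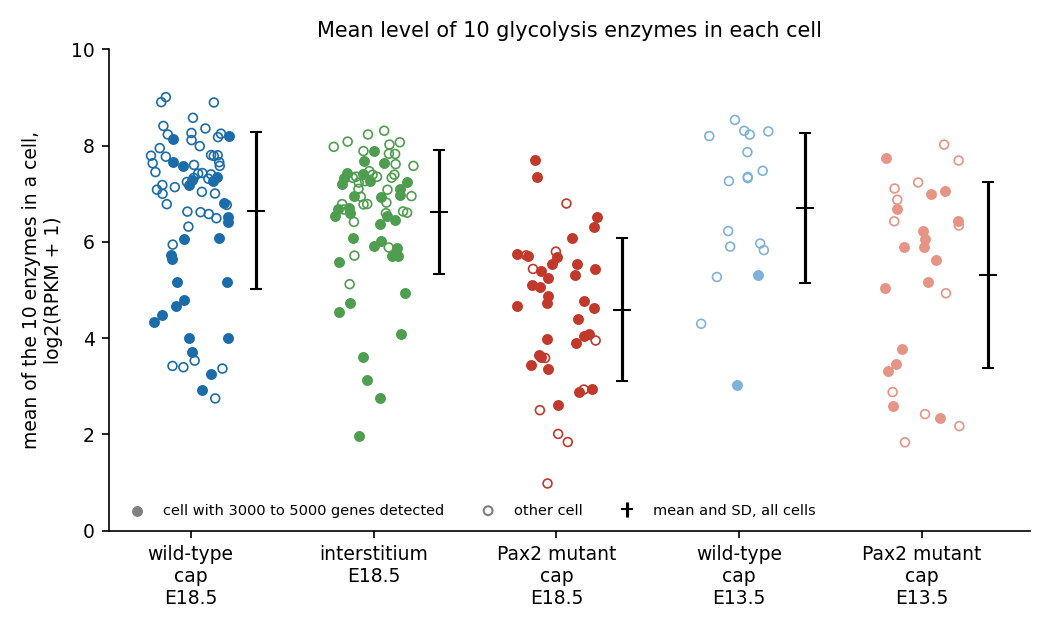
Mean of log2(RPKM + 1) over the 10 enzymes in each cell, by group. Filled points are cells with 3000 to 5000 genes detected, open points are other cells and bars are mean and SD over all cells of the group; the E18.5 mutant cells centre on 4.59, below the 3 wild-type groups at 6.62 to 6.70, with overlapping ranges.

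Within every group, cells with more genes detected had a higher enzyme mean, with Pearson's r of 0.73 in E18.5 cap (n = 74 cells), 0.49 in interstitium (n = 71), 0.73 in E18.5 mutant (n = 44), 0.56 in E13.5 cap (n = 18) and 0.82 in E13.5 mutant (n = 29). These correlations describe cells that share a date and, outside the interstitium, a pool. Library depth, which is unknown here, could not be set beside them. Among cells with 3000 to 5000 genes, the enzyme mean was 5.78 ± 1.56 (n = 26) in E18.5 cap, 6.04 ± 1.49 (n = 35) in interstitium, 4.86 ± 1.23 (n = 33) in E18.5 mutant and 5.31 ± 1.65 (n = 17) in E13.5 mutant. The mutant stayed the lowest of the E18.5 groups, while interstitium lay above cap, and the gap between mutant and cap was -0.93 in place of -2.05. The band held 12 pseudogene-high cells among the 26 cap cells, with an enzyme mean of 4.48 ± 1.12, and 9 of 35 among interstitial and 1 of 33 among E18.5 mutant cells. Without them, an alternative chosen after the values were seen, the enzyme mean in the band was 6.90 ± 0.85 (n = 14) in cap, 6.78 ± 0.63 (n = 26) in interstitium and 4.92 ± 1.20 (n = 32) in mutant, and the gap between mutant and cap was -1.98. The part of the pseudogene-high cells in the narrower gap was not tested further. Even inside this band the mutant cells were poorer, with a median of 3769 genes against 4145 in cap and 4209 in interstitium.

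**Figure D3:**
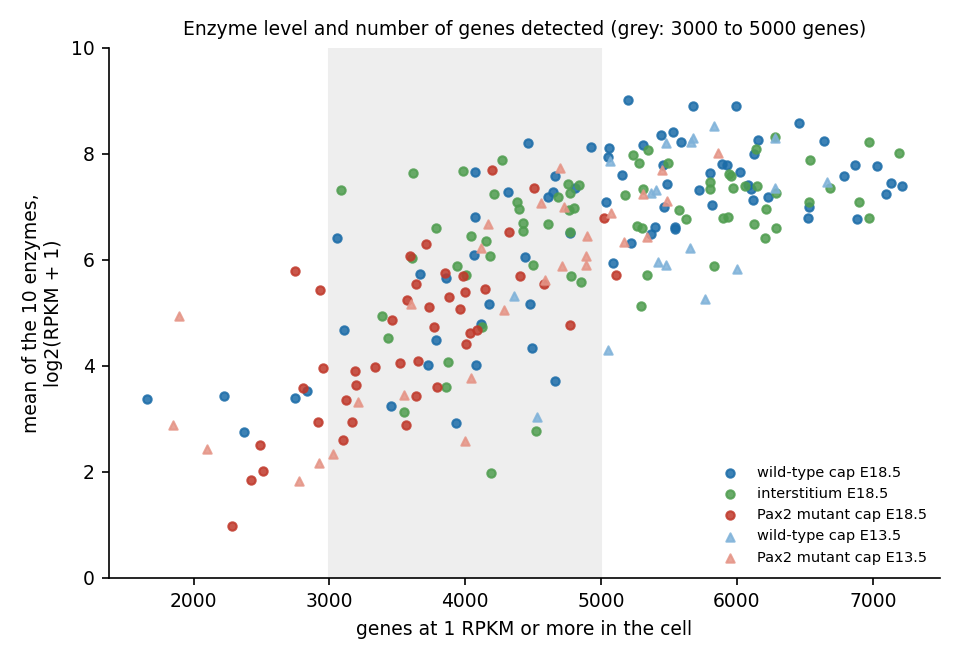
Mean of log2(RPKM + 1) over the 10 enzymes against the count of detected genes, for 236 cells coloured by group (circles, E18.5; triangles, E13.5). The grey band marks 3000 to 5000 genes; the enzyme mean rises with gene number in every group, and most E18.5 mutant cells lie in the left part of the plot.

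Wild-type interstitium and cap at E18.5 differed by -0.02 in the enzyme mean, and no member differed by 1 log2 unit in either direction, against 2.84% of 10651 genes lower and 6.23% higher. A gene entered such a background where it was detected in at least 10% of cells, by the mean of the shares of the 2 groups compared, and all 10 enzymes did so in each of the 6 comparisons. The median difference of the 10 was 0.02, and that of all genes tested was 0.0042. The members lay on both sides of 0. Aldoa, which splits fructose 1,6-bisphosphate, differed by 0.77 and Pkm, which makes pyruvate and ATP, by 0.64, while Pfkl differed by -0.90, Hk2 by -0.70 and Gapdh by -0.62. Pkm ran from 3.47 to 1805 RPKM (median 419) in interstitium and from 1.43 to 1860 RPKM (median 299.8) in cap, ranges that overlap almost fully.

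Within 1 pool some of these values were larger. The 22 interstitial cells that shared that pool with the cap cells differed from them by -1.61 in Hk2, -1.35 in Pgam1 and -1.01 in Pfkl, so that 3 members were lower by 1 log2 unit there, Pfkl only just, against 5.64% of genes, and their enzyme mean was 6.16 ± 1.63 against 6.82 ± 1.05 in the 49 interstitial cells of pool 3. In the band of 3000 to 5000 genes, Aldoa (1.19) and Pkm (1.16) were higher in interstitium by 1 unit, against 11.5% of genes, and 0 were lower, against 5.58%. Without the pseudogene-high cells of the band Aldoa (0.17) and Pkm (0.68) did not reach 1 unit, while Pfkl differed by -2.57 and Tpi1 by 1.16. Without such cells over all gene numbers, Pfkl (-1.57) and Hk2 (-1.07) were lower in interstitium by 1 unit. The share of all genes was not computed for that setting. Of the related lists, Eno3, the muscle form of enolase, differed by -1.72 (detected in 17 of 71 interstitial and 42 of 74 cap cells), Myc by -1.40, and Bnip3, a mitophagy receptor gene induced by hypoxia, by -1.40, while Pdk3, a kinase that restrains pyruvate dehydrogenase, differed by 1.14.

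Against wild-type cap, the E18.5 mutant cells were lower by 1 log2 unit or more in 9 of the 10 enzymes and higher in 0, against 25.2% of 10229 genes lower and 4.87% higher. The median difference was -2.22 over the 10 and -0.44 over all genes tested. Among genes detected in at least 50% of cells by the same rule, 35.5% were lower, and Hk2 and Pfkl do not reach that level. Aldoa was the exception, with a difference of -0.05, which was -0.93 without the pseudogene-high cells; 9 of the 10 were lower there too, against 33.5% of genes. As the log2 ratio of mean RPKM, 5 of the 10 were lower by 1 unit, against 24.2% of genes, and Gpi1 (-0.68), Tpi1 (-0.50), Pgam1 (-0.45), Ldha (-0.83) and Aldoa (0.10) were not.

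At the entry, Hk2, which traps glucose as glucose 6-phosphate, ran from 0 to 249.8 RPKM (median 0) in mutant cells and from 0 to 406.6 RPKM (median 15.1) in cap cells. It was detected in 13 of 44 mutant cells (29.5%, exact 95% interval 16.8 to 45.2) and in 48 of 74 cap cells (64.9%, 52.9 to 75.6), and the difference of means was -2.58. Pfkl, the liver-type phosphofructokinase of the committed step, reached 1 RPKM in 11 of 44 mutant cells and in 55 of 74 cap cells, with a difference of -2.48. Both were under 1 RPKM in most mutant cells, and the highest mutant cell reached 125 RPKM for Pfkl, inside the cap range. Gpi1, the isomerase between these steps, had a median of 38.7 RPKM (0 to 425) in mutant and 87.2 RPKM (0 to 532) in cap cells, a difference of -1.63.

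In the middle of the path the neighbours parted over all cells. Aldoa had a median of 259 RPKM (0 to 1534) in mutant cells and 241 RPKM (0 to 1276) in cap cells, and was detected in 40 of 44 and 71 of 74. Tpi1, which interconverts the triose phosphates, had medians of 97.8 RPKM (0 to 758) and 201 RPKM (0 to 4729) and a difference of -1.18. The Aldoa ranges overlapped almost fully. For Tpi1 the upper quartile was 344 RPKM in mutant and 315 RPKM in cap cells, and the lower quartile was 1.84 and 46.2 RPKM. In cells with 3000 to 5000 genes and without pseudogene-high cells, Aldoa differed by -0.94 and Tpi1 by -0.49.

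Gapdh ran from 0 to 841 RPKM (median 284) in mutant cells and from 5.53 to 6905 RPKM (median 1162) in cap cells, with a difference of means of -2.92. The highest mutant cell lay below the lower quartile of the cap cells, 911 RPKM, although the ranges overlapped at the low end. Pgk1, which makes the first ATP of the path, ran from 0 to 775 RPKM (median 11.9) in mutant and from 0 to 3392 RPKM (median 259) in cap cells. Its difference of -3.32 had the largest size of the 10 in this comparison, and 0.704% of the genes tested lay lower. It was detected in 29 of 44 mutant cells (65.9%, 50.1 to 79.5) and in 73 of 74 cap cells. Pgam1, the mutase that follows, differed by -1.97, with detection in 31 of 44 and 70 of 74 cells.

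Pkm ran from 0 to 512 RPKM (median 64.9) in mutant cells and from 1.43 to 1860 RPKM (median 299.8) in cap cells, where it was detected in all 74. In the mutant it was detected in 33 of 44 cells (75%, 59.7 to 86.8) and listed at 0 in 6, and the difference of means was -2.86. Ldha kept broad detection, 40 of 44 against 72 of 74 cells, with medians of 187 RPKM (0 to 4042) and 569 RPKM (0 to 2274) and a difference of -1.54. The single highest Ldha value of these 2 groups was in a mutant cell.

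In the band of 3000 to 5000 genes, 6 of the 10 were lower in mutant than in cap cells by 1 log2 unit, against 11.6% of 9624 genes, and 1 was higher, against 10.1%. The lower ones were Gapdh (-2.14), Pgk1 (-1.67), Pfkl (-1.66), Gpi1 (-1.49), Pkm (-1.39) and Pgam1 (-1.03), and the higher one was Aldoa (1.16). Hk2 (-0.85), Tpi1 (-0.11) and Ldha (-0.09) did not reach 1 unit. The median of the 10 was -1.21 and that of all genes -0.05. Without the pseudogene-high cells of the band 8 were lower, against 19.3% of 9556 genes, and 0 higher. Aldoa was then at -0.94, Ldha at -2.18 and Tpi1 at -0.49. A list of 12 housekeeping genes differed by -0.73 in its mean over all cells and by 0.17 in the band. The cell cycle list was also lower in the mutant group: its mean over 12 genes was 0.93 in mutant and 4.16 in cap cells. Across the cells of a group, Pearson's r between that mean and the enzyme mean was 0.46 in cap and 0.09 in mutant. With gene number removed it was -0.04 in cap and -0.15 in mutant. The part of the cell cycle list in the difference was not tested.

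Top2a, a topoisomerase of dividing cells, was under 1 RPKM in 42 of 44 mutant, 11 of 74 cap and 18 of 71 interstitial cells, a split that was chosen after the values were seen. Of the cap cells, 8 lay near that limit, between 0.5 and 2 RPKM of Top2a. Among Top2a-low cells the enzyme mean was 4.65 ± 1.40 (n = 42) in mutant, 7.17 ± 0.65 (n = 11) in cap and 6.65 ± 0.93 (n = 18) in interstitium. Among Top2a-low cells with 3000 to 5000 genes it was 4.84 ± 1.24 (n = 32), 6.96 ± 0.55 (n = 8) and 6.48 ± 0.84 (n = 15), a difference of mutant from cap of -2.12 that rests on 8 cap cells. The 18 cap cells of the band with Top2a at 1 RPKM or more had an enzyme mean of 5.26 ± 1.59, and 11 of them were pseudogene-high, against 1 of the 8 Top2a-low ones. In the Top2a-low subset of the band 7 of the 10 enzymes were lower by 1 log2 unit, against 26.7% of 9415 genes, from Gpi1 at -2.11 to Pgk1 at -3.70. Aldoa (-0.95) and Tpi1 (-0.87) did not reach 1 unit, and Hk2 differed by 0.11. The 8 cap cells ranged from 6.06 to 7.58 and the 32 mutant cells from 2.61 to 7.70.

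Against wild-type interstitium, whose stromal markers the E18.5 mutant cells shared, 9 of the 10 were again lower by 1 log2 unit, against 25% of 10173 genes, and 0 were higher, against 2.2%. The same mutant cells enter both comparisons, so the counts are not separate evidence. The median difference was -1.81, against -0.44 over all genes. Among genes detected in at least 50% of cells by the same rule, 38.4% of 3150 were lower, with a median of -0.67. Hk2 and Pfkl do not reach that level. Pkm (-3.50) and Pgk1 (-3.25) stood lowest, followed by Gapdh (-2.30), Hk2 (-1.88), Ldha (-1.86), Gpi1 (-1.75), Pgam1 (-1.70), Tpi1 (-1.66) and Pfkl (-1.58), and Aldoa differed by -0.82. Pkm and Pgk1 were each detected in all 71 interstitial cells. In the band 4 of 10 were lower, Pkm (-2.56), Pgk1 (-2.16), Gpi1 (-1.66) and Gapdh (-1.34), against 12.3% of 9729 genes, with a median of -0.94 against -0.10, and 0 were higher, against 5.32%. Without the pseudogene-high cells of the band 9 were lower, against 16.9%. Over all cells 5 were lower with a pseudocount of 10, against 6.28% of genes, and 5 as the log2 ratio of mean RPKM, against 22.9%. The cell cycle mean differed by -3.15 and the housekeeping mean by -0.90 in this comparison, and by -1.96 and -0.13 in the band, and their part in it was not tested.

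At E13.5, 9 of the 10 were lower in mutant than in wild-type cap cells by 1 log2 unit, against 30.9% of 10254 genes, and 0 were higher, against 1.57%. The background was wide: among genes detected in at least 50% of cells, 52% were lower by that much. The median difference of the 10 was -1.47, that of all genes -0.54 and that of the widely detected genes -1.06. Pgk1 had medians of 46.6 RPKM (0.50 to 1112) in mutant and 242 RPKM (1.76 to 873) in cap cells, a difference of -2.17. Gpi1 (-1.73), Ldha (-1.61), Hk2 (-1.57), Aldoa (-1.50), Pfkl (-1.44), Pgam1 (-1.39), Pkm (-1.22) and Gapdh (-1.11) followed, and Tpi1 differed by -0.11. Gapdh was detected in all 29 mutant and all 18 cap cells.

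These E13.5 values rested on a part of the cells. Without the pseudogene-high cells, which left 21 mutant and 17 cap cells, 2 of the 10 were lower by 1 unit, Pgk1 (-1.75) and Hk2 (-1.24), against 20.6% of 10456 genes. Tpi1 lay just short of 1 unit higher, and the enzyme mean differed by -0.70 in place of -1.38. Over all cells 3 were lower with median-ratio scaling, against 19% of genes, 5 with a pseudocount of 10, against 8.82%, and 0 as the log2 ratio of mean RPKM, against 25.2%. The housekeeping mean differed by -1.37 in the same comparison, as much as the enzyme mean. The 2 E13.5 cap cells with 3000 to 5000 genes had enzyme means of 3.03 and 5.31, and the 17 mutant cells in the band had 5.31 ± 1.65. On those 2 cells 1 member was lower in the mutant, against 33.1% of 8661 genes, and 4 were higher, against 26.2%. The cell cycle mean was 3.19 in mutant and 5.67 in cap cells over all cells, and its part in the difference was not tested.

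Wild-type cap at E18.5 and at E13.5 had nearly the same enzyme mean, with a difference of -0.06, and no member differed by 1 log2 unit, against 15.8% of 10529 genes lower and 2.74% higher. Pkm was nearest to that limit at -0.98, with medians of 299.8 RPKM at E18.5 and 375 RPKM at E13.5, and Tpi1 stood highest at 0.65. The median of the 10 was -0.05 and that of all genes -0.23. Without the pseudogene-high cells, Tpi1 (1.23) and Ldha (1.17) were higher at E18.5 by 1 unit, against 5.68% of genes. In the band, again with 2 cells at E13.5, 1 was lower, against 35.4% of genes, and 8 were higher, against 24.6%. Of the neighbouring steps, enolase was lower at E18.5, with Eno1 at -1.05 and Eno3 at -1.57, as were Ldhb at -1.46 and the glucose transporter gene Slc2a1 at -1.13. Pdk1, a pyruvate dehydrogenase kinase and hypoxia target, was detected in 33 of 74 cells at E18.5 and 2 of 18 at E13.5, a difference of 1.17.

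In mutant cells, E18.5 minus E13.5 gave 4 members lower by 1 log2 unit and 1 higher, against 12.9% of 9656 genes lower and 7.42% higher. The lower ones were Pkm (-2.62), Gapdh (-1.91), Pgk1 (-1.54) and Pfkl (-1.03), and the higher one was Aldoa (1.11). Pkm had a median of 352 RPKM (0 to 1114) at E13.5 and 64.9 RPKM (0 to 512) at E18.5, and Gapdh 979 RPKM (9.80 to 4032) and 284 RPKM (0 to 841). In the band Pkm (-2.36) and Gapdh stayed lower by 1 unit or more, against 13.7% of genes, and Aldoa stayed higher (1.91), against 9.14%. Without the pseudogene-high cells 7 were lower, against 22.2% of genes, and 0 higher, against 5.97%, with Aldoa at 0.15 over all gene numbers and at 0.89 in the band. The stromal list mean was 1.81 at E13.5 and 5.33 at E18.5, and its part in these differences was not tested.

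**Figure D4:**
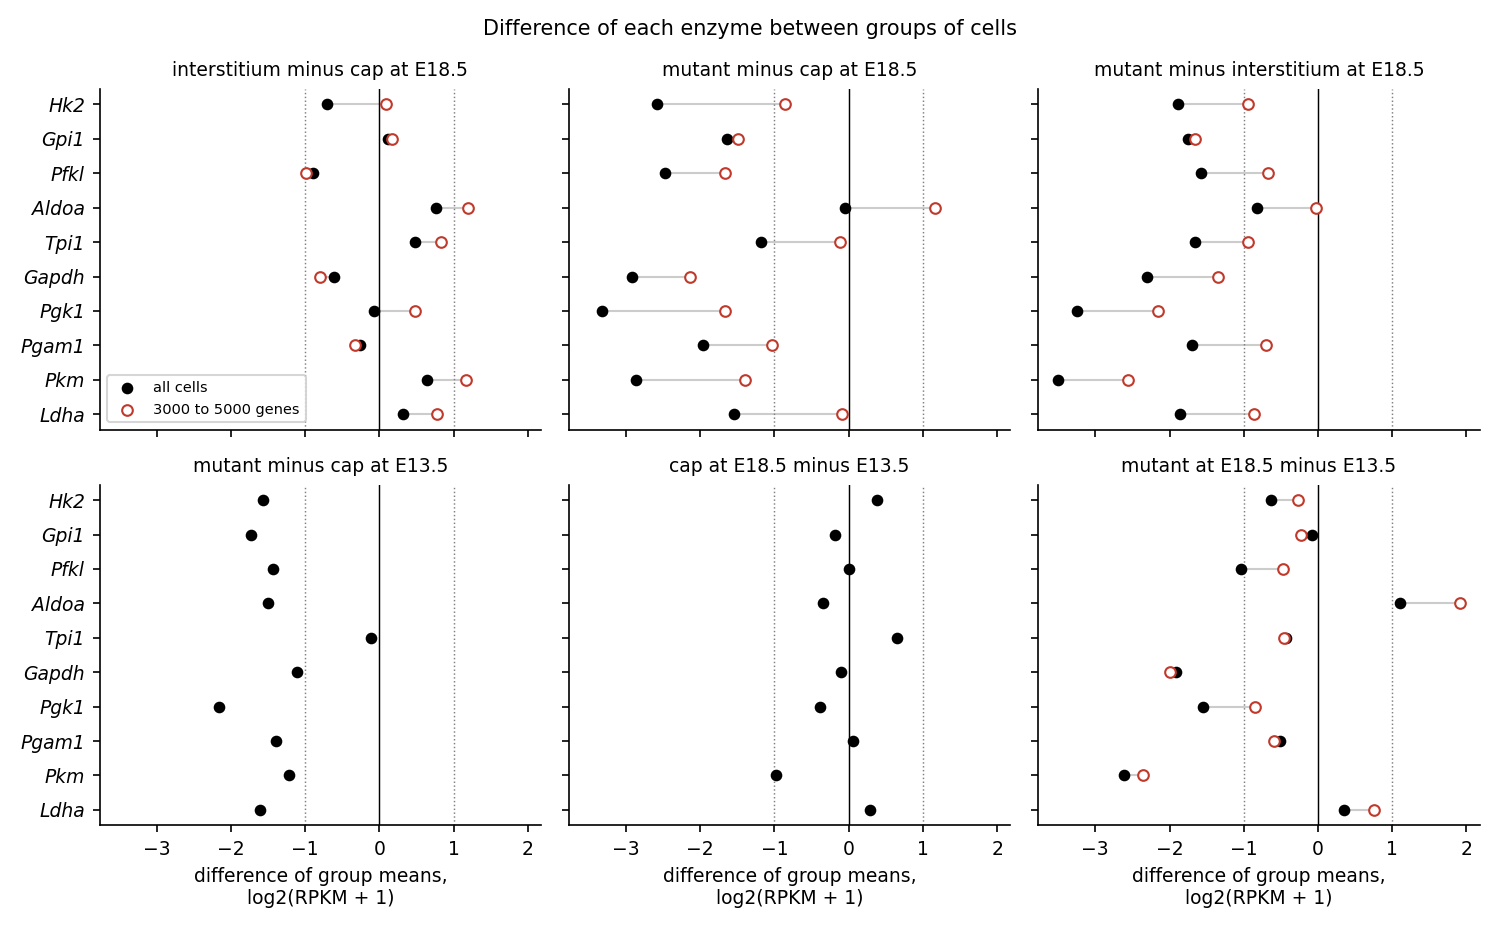
Difference of group means of log2(RPKM + 1) for each enzyme in 6 comparisons, over all cells (black) and over cells with 3000 to 5000 genes (open red); dotted lines mark 1 log2 unit. Open points are left out where a group had 2 cells; 9 of 10 enzymes lie beyond -1 in the 3 mutant minus wild-type panels over all cells, with Aldoa the exception at E18.5 and Tpi1 at E13.5.

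Near-identical copies touch 3 members. The table lists 294 Gapdh pseudogenes, of which 12 were detected in at least 50% of cells, with summed mean levels of 599 RPKM against 945 RPKM for Gapdh, so reads of the gene and its copies may have been split by the counting. Pgam1 had copies of 81.2 RPKM in sum beside 170.3 RPKM for the gene, and Pgk1 had 1 copy above 0, at 31.8 beside 248 RPKM. With the copies added, the E18.5 mutant minus cap difference was -2.82 for Gapdh, -2.14 for Pgam1 and -3.35 for Pgk1.

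The remaining enzymes of these steps lay on both sides of 0. In the E18.5 mutant minus cap comparison, 5 of 18 other isozyme genes were lower by 1 log2 unit, against 25.2% of genes tested. Of the 18, 1 was higher, against 4.87% of genes, and 8 were detected widely enough for the background. Eno1, which fills the enolase step, reached 1 RPKM in 36 of 44 mutant cells and in all 74 cap cells and differed by -2.26. Ldhb differed by -2.66 and Eno3 by -2.79, and Eno2, the neuronal enolase, differed by 1.20, present in 9 of 44 mutant cells and 1 of 74 cap cells. Eno1b, a near-identical copy of Eno1, differed by -2.12, and reads of that pair may be split. In the band Eno1b (-1.07) and Eno3 (-2.49) remained beyond 1 unit among the lower ones.

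Of 10 regulators of flux, pyruvate dehydrogenase kinases among them, and 6 gluconeogenesis genes, 0 differed by 1 unit between E18.5 mutant and cap cells. Of all genes tested, 25.2% were lower and 4.87% higher there. Fbp1, Fbp2 and G6pc, among these genes, were detected in no labelled cell and so could not differ by 1 unit. For these and the lists that follow, counts cover every gene of a list. The share of all genes covers only genes that passed the 10% filter. List genes detected in few cells could hardly fall by 1 unit, so a count under that share is no result about a list. Among 7 transporters of glucose and lactate, 2 were lower in E18.5 mutant than in cap cells, against the same 25.2% of genes. These were Slc16a1, a monocarboxylate transporter, at -1.34 and Slc2a1 at -1.01. Slc2a3, another glucose transporter gene, was detected in every labelled cell, with group means of 22 to 35.1 RPKM. By contrast Hk2, with a mean of 58.8 RPKM in E18.5 cap, was detected in 48 of those 74 cells. The source of the even detection of Slc2a3 was not tested.

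In E18.5 mutant against cap cells 10 of 16 genes of pyruvate entry and the cycle were lower and 0 higher, where 25.2% of all genes were lower, with Cs, citrate synthase, at -2.92 and Sdhb, a succinate dehydrogenase subunit, at -2.48. In the band 2 of 16 were lower, Cs (-2.12) and Mdh2 (-1.48), a share near the 11.6% of all genes. At E13.5, 12 of 16 were lower in mutant cells, where 30.9% of all genes and 52% of widely detected genes were. In the pentose phosphate pathway 4 of 7 were lower in E18.5 mutant than in cap cells, with Taldo1 at -1.45, against the same 25.2%, and 0 of 7 in the band, against 11.6%.

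Of 16 hypoxia response genes in E18.5 mutant against cap cells, 2 were lower, Bnip3l at -1.80 and Kdm3a at -1.75, and 0 higher. Of all genes tested, 25.2% were lower and 4.87% higher, but the 16 were counted without the detection filter of that share. The hypoxia list mean differed by -0.18. Bnip3 was higher in E18.5 mutant than in interstitial cells by 1.52, and by 2.19 in the band. Of all genes, 2.2% were higher there by 1 unit over all cells and 5.32% in the band. The other hypoxia genes are not given for that comparison. Of 4 Myc genes, 2 were lower in E18.5 mutant than in cap cells, against the same 25.2% of all genes. Myc reached 1 RPKM in 1 of 44 mutant cells and 50 of 74 cap cells at E18.5, a difference of -2.92. Mycn differed by -1.20. At E13.5 Myc was present in 3 of 29 mutant and 12 of 18 cap cells, a difference of -3.15. In the interstitium Myc was detected in 22 of 71 cells and Mycn in 33 of 71. Whether either list has a part in the enzyme levels was not tested.

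Across the 236 cells, with group means and gene number removed, the members varied together weakly. Against the mean of the other 9, Pearson's r ran from 0.18 for Hk2 to 0.54 for Aldoa, with Pkm at 0.44 and Ldha at 0.41. Over the 45 pairs the median r was 0.15, with Aldoa and Ldha highest at 0.47 and Hk2 and Gpi1 lowest at -0.03. Of 3295 other genes ranked against the enzyme mean, Eno1 came first at 0.55, and the median gene had 0.06. Map1lc3b (0.48), Arf1 (0.47), Nhp2l1 (0.46), Ywhaz (0.46), Set (0.46), Sec61b (0.46), Ftl2 (0.45) and Atp5a1 (0.45) were among those that followed, and none of these named after Eno1 encodes a glycolytic enzyme. Within a group the points are linked by date, library sensitivity and, outside the interstitium, pool, and the values are a description. They include the 42 pseudogene-high cells, whose enzyme means were low, and were not computed without them. By this measure the cell-to-cell pattern of Eno1 was the most like that of the 10.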

How the data were processed

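The authors deposited 1 table of RPKM per gene and cell. TopHat and the mm10 build are named per the submitters' processing notes, and the aligner version, gene models, counting rule and doublet handling are not given in the sources used here. Library totals are unknown, and low RPKM values showed no steps of whole reads, so detected genes per cell serve as a proxy of depth. Analyses used Python 3.11.15, numpy 2.4.6, pandas 2.3.3 and scipy 1.17.1. RPKM values were used as deposited, with a pseudocount of 1 before log2, and no cell was removed other than 1 cell whose labels name both cap and interstitium. Group differences are differences of mean log2(RPKM + 1), which understate changes of low genes; the computation was checked on simulated data. No p-values were computed, because no label names an embryo and cells are not replicates. Intervals of shares (exact Clopper-Pearson, 95%) reflect only the counting of cells. The 10 members and the 18 other gene lists (170 genes with the members, 1 unmatched, 2 matched by gene ID) were chosen with earlier results of these data known. The 10 members are named in every comparison. From other lists, genes past 1 log2 unit are named, at most the 4 largest by size; Eno2 in mutant minus cap, Slc2a3, Hk1, Pfkm, Mycn in interstitium, Top2a, the ATP synthase pseudogene and the enzymes listed at 0 were added after their values were seen. The 10 genes most like the enzyme mean were taken by Pearson's r among genes detected in 50% of cells, without Gm and Rik models, ribosomal protein and mitochondrially encoded genes; 1 of them is not reported here. Alternatives changed the pseudocount, scaling, summary, filter and set of cells.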

Additional observations from a re-analysis of the deposited data

How the results depend on the processing

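No paired analysis was possible because replicate numbers follow accession order and link no cells across groups. Depth is unknown, and group cannot be told apart from date. In every alternative the enzyme mean stayed lower in mutant cells at E18.5: mutant minus cap at E18.5 ran from -2.68 (pseudocount 0.1) to -0.93 (3000 to 5000 genes), and mutant minus interstitium at E18.5 from -2.63 (pseudocount 0.1) to -0.98 (log2 ratio of mean RPKM). Counts below are members lower by 1 log2 unit unless called higher. Where a share of all genes was computed for a count, it stands with the results above. Counts given only here have no such share and cannot be read against all genes. The cause of each shift was not tested. Interstitium minus cap gave 2 with a pseudocount of 0.1, 2 without cells high for the ATP synthase pseudogene, 3 in pool 2 and 2 higher in the band of 3000 to 5000 genes. With subsets chosen after seeing the data, it gave 1 lower and 1 higher in the band without pseudogene-high cells, 1 in Top2a-low cells and 2 in Top2a-low cells of the band, where Hk2 in mutant minus cap at E18.5 was 0.11. Mutant minus cap at E18.5 gave 5 by the log2 ratio of means and 1 higher in the band. Mutant minus interstitium gave 5 with a pseudocount of 10, 5 by the ratio of means and 4 in the band. Mutant minus cap at E13.5 gave 5 with a pseudocount of 10, 3 with median-ratio scaling, 0 by the ratio of means (Pfkl 0.10) and 2 without pseudogene-high cells. In the band, on 2 cap cells, it gave 1 lower and 4 higher, the enzyme mean was 1.14, and Hk2 (1.42), Aldoa (0.64), Gapdh (2.55), Pgk1 (0.99), Pgam1 (2.06), Pkm (0.85) and Ldha (0.44) reversed. Cap at E18.5 minus E13.5 gave 1 with a pseudocount of 0.1, 1 with equal RPKM sums, 1 without the cap cell with endothelial markers (chosen after seeing the data) and 2 higher without pseudogene-high cells; the band gave 1 lower, 8 higher and an enzyme mean of 1.61. Mutant at E18.5 minus E13.5 gave 2 with a pseudocount of 10, 2 in the band and 7 without pseudogene-high cells, and 0 higher with a pseudocount of 10, by the ratio of means and without pseudogene-high cells, over all gene numbers and in the band. That last setting left 1 E13.5 cap cell, so it gave no value for comparisons with that group. Adding pseudogene copies, also chosen after seeing the data, changed none of these counts by over 1.5 times.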

Other observations

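For 1 cell the labels conflict, naming both E13.5 cap mesenchyme and interstitial cells, and it entered no comparison. It had 6570 genes detected, all 10 enzymes detected and an enzyme mean of 7.12. Its levels were 114.9 RPKM for Hk2, 33.8 RPKM for Gpi1, 55.2 RPKM for Pfkl, 77.1 RPKM for Aldoa and 61 RPKM for Tpi1. In the later steps they were 1484 RPKM for Gapdh, 170.4 RPKM for Pgk1, 175 RPKM for Pgam1, 347 RPKM for Pkm and 157 RPKM for Ldha.

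Among the 74 E18.5 wild-type cap cells, the 62 with Six2 at 1 RPKM or more had an enzyme mean of 6.99 ± 1.36 and the 12 with less had 4.83 ± 1.76, a split chosen after the values were seen. The 12 cells also had fewer genes detected, with a median of 3894 against 5458. Among cap cells with 3000 to 5000 genes the enzyme mean was 5.86 ± 1.57 in 18 cells with Six2 and 5.60 ± 1.64 in 8 cells without.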
